A study of Arabidopsis thaliana with 36 samples.

Results

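Transcript levels 1 h after lights on (ZT1) were compared between rosette leaves of Arabidopsis thaliana Col-0 sampled at 35 days after sowing (DAS) and at 21 DAS. The comparison uses 6 of the 36 libraries of the series, chosen by the age and time given in the sample titles: 3 libraries at 35 DAS and 3 at 21 DAS. Both ages are wild type, carry no transgene and received no treatment. They grew at 22 °C under 16 h of light (100 µmol m−2 s−1) and 8 h of dark, so that age in days is the only difference the labels state. Rosette leaves 3 and 4 were taken according to the sample labels, whereas the series text speaks of the third leaf. The 3 libraries of an age are numbered as batches in the titles and called biological replicates in the series text. Unless stated otherwise, p-values rest on the spread among libraries of the same age and time, pooled over all 36 libraries. They therefore do not measure the spread of the 6 ZT1 libraries alone. The other 30 libraries, taken at ZT5, ZT9, ZT13, ZT17 and ZT21 at both ages, were used to ask whether an age difference at ZT1 departs from that at other times. The series asks how the daily rhythm of expression changes with age.

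A rosette leaf first imports sugar and expands, then exports sugar, and at last senesces, when chlorophyll and chloroplast protein are broken down and their nitrogen moves to younger organs. Soon after dawn the clock genes of the morning, CCA1 and LHY, are near their peak, light-induced genes respond through cryptochromes, phytochromes and UVR8, and the leaf turns from degrading starch to making it. The morning factors repress genes of the evening by binding a short promoter motif called the evening element.

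Before any group is compared, the libraries have to be described. The 35 DAS libraries had FPKM sums of 832879, 836268 and 879266, against 884051, 872504 and 882577 in the 21 DAS libraries, where FPKM is the number of fragments per kilobase of transcript, scaled to library size. Between 14% and 32% of genes lay within 2% of a common step such as 1 read would give between low values, so reads were not recovered. The depth is therefore unknown, and no counting interval is given. The 35 DAS libraries differed more among themselves, with standard deviations of 0.381, 0.264 and 0.307 around their mean profile on the log2(FPKM + 1) scale, against 0.210, 0.189 and 0.208 at 21 DAS. The 35 DAS library of batch 1 stood apart in defence and chaperone genes. The 35 DAS library of batch 3 stood apart in anthocyanin genes, and both are described beside the results they touch. Among markers of other tissues, 1 of 7 root markers and 3 of 9 flower markers passed the filter on low values. The 6 mesophyll markers summed to 17440 to 29000 FPKM at 35 DAS and to 59930 to 65340 FPKM at 21 DAS, with 5 of the 6 lower at 35 DAS.

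Of 18729 genes tested, 13195 (70.5%) differed between 35 and 21 DAS at ZT1 (limma, Benjamini-Hochberg adjusted p under 0.05). At 35 DAS 9957 genes (53.2%) were higher and 3238 (17.3%) were lower. A difference of at least 2-fold was called for 4038 genes (21.6%) that were higher and 1489 (7.95%) that were lower. The ZT1 values of the ages did not overlap in 13409 genes (71.6%). With so many genes called, the count of a gene list is read against these shares. The median of all genes was 0.45 on the log2 scale. Rescaling the libraries by median-of-ratios factors moved that median to 0.02 and the calls to 5522 higher (29.5%) and 5745 lower (30.7%). The share of calls that were higher thus was 75.5% as deposited and 49% after rescaling. Of the called genes, 8760 kept their sign and their call under both scalings, 104 turned sign and 4331 were no longer called. Differences below are those of the deposited FPKM, and a gene at 0.45 stands at the middle of all genes. Where rescaling turns the direction of a group, this is said beside it.

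**Figure D1:**
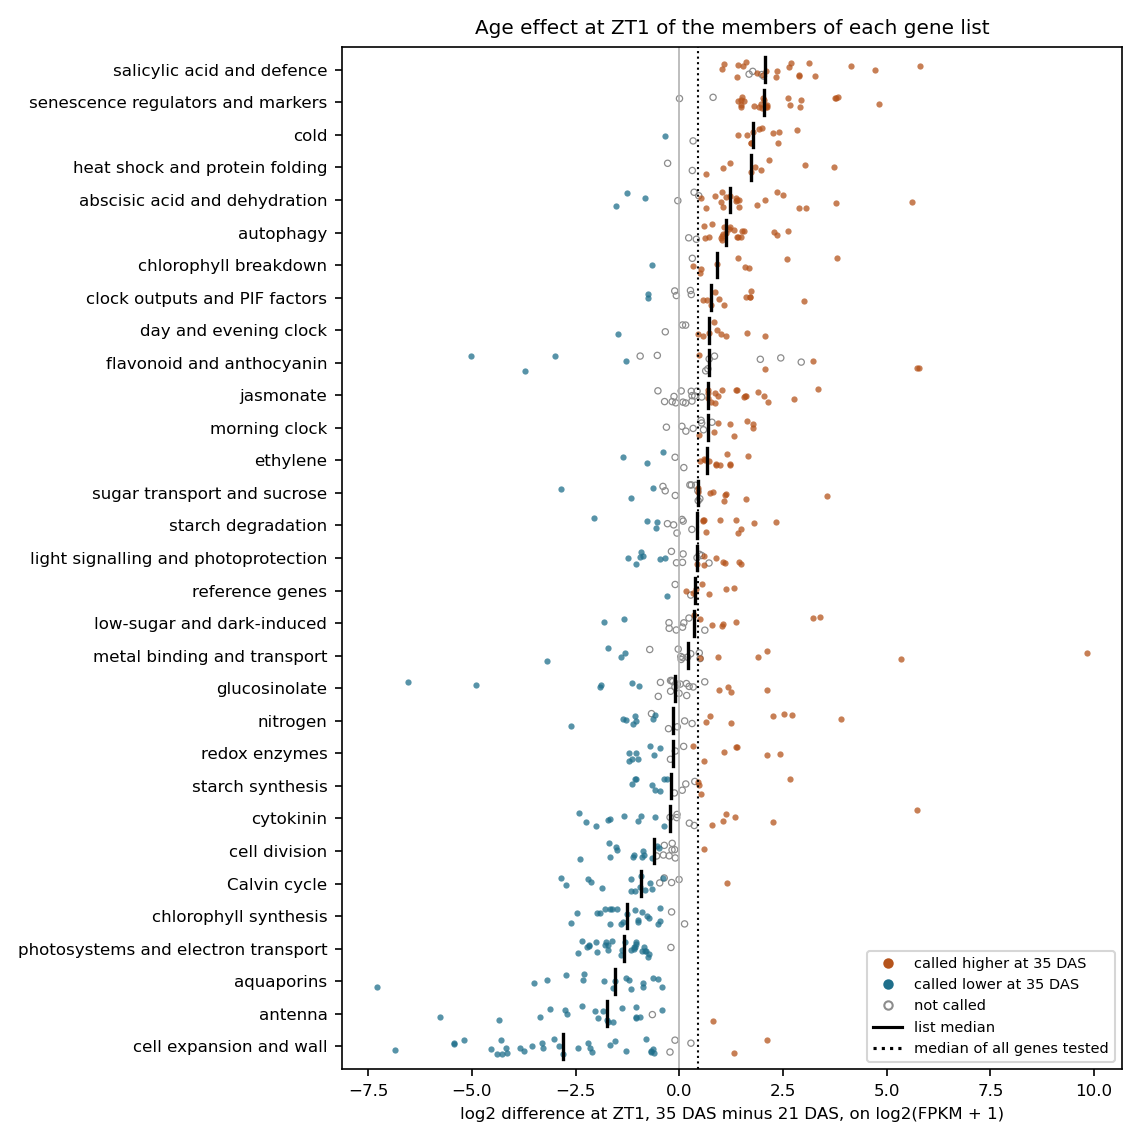
Age effect at ZT1 of the members of 31 gene lists. Each point is 1 gene, the horizontal axis gives the log2 difference of 35 DAS minus 21 DAS on log2(FPKM + 1), filled points are called genes, open points are not called, short lines are list medians and the dotted line is the median of all genes at 0.45. Cell expansion and wall genes have the lowest median, at −2.80, and salicylic acid and defence genes the highest, at 2.07.

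Photosynthesis genes were lower at 35 DAS, at ZT1 and on average at the other times. At the other 5 times the median of the mean age effect was −1.50 for antenna genes. It was −1.34 for genes of photosystems and electron transport. Of 21 genes for light-harvesting antenna proteins, 19 fell at ZT1, 17 of them at least 2-fold, and the list median was −1.74. LHCB2.3, a photosystem II antenna gene, had 13.7, 15.6 and 25.5 FPKM at 35 DAS and 891, 962 and 1194 FPKM at 21 DAS. Its log2 difference was −5.76 ± 0.28 (SE; adjusted p = 6.18e-15). The abundant LHCB1.3 had 1538, 1612 and 3311 FPKM at 35 DAS and 17794, 15915 and 18534 FPKM at 21 DAS, a difference of −3.11 ± 0.34 (adjusted p = 7.66e-09). In both genes every 35 DAS library lay below every 21 DAS library, with the 35 DAS library of batch 3 the highest of its age. The antenna genes together summed to 12980 to 26280 FPKM per library at 35 DAS and 60720 to 69530 FPKM at 21 DAS. LHCB7, a low-level antenna gene, stood on the other side, with 50.8, 68.4 and 61.1 FPKM at 35 DAS against 34.0, 31.1 and 35.7 FPKM at 21 DAS. Its difference of 0.81 ± 0.15 (adjusted p = 2.06e-05) was not called after rescaling, where it was 0.28. Closely related antenna genes may share reads, and how the authors' counting treated such reads is not given in the sources used here.

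The other parts of the photosynthetic apparatus fell with the antenna. All but 1 of 28 tested genes for photosystem and electron transport proteins were lower, 21 of them at least 2-fold, with a median of −1.34, and after rescaling the last one was lower too. PSBQ1, an extrinsic subunit of the oxygen-evolving complex, had 322, 382 and 623 FPKM at 35 DAS and 2398, 2092 and 2493 FPKM at 21 DAS (−2.45 ± 0.22, adjusted p = 2.09e-10). In the Calvin cycle 14 of 19 genes were lower and 1 was higher. RBCS3B, a Rubisco small subunit, had 1163, 1251 and 2501 FPKM at 35 DAS against 12330, 10368 and 10939 FPKM at 21 DAS (−2.86 ± 0.34, adjusted p = 3.18e-08). The Rubisco activase gene RCA was not called (adjusted p = 0.991). It had 7865, 9482 and 10095 FPKM at 35 DAS and 9681, 8942 and 8771 FPKM at 21 DAS, and the groups overlapped. Chlorophyll synthesis fell in 21 of 23 genes, 13 of them at least 2-fold. HEMA1, which encodes the glutamyl-tRNA reductase that starts the pathway, had 83.4, 94.5 and 110.2 FPKM at 35 DAS and 599.8, 570.4 and 595 FPKM at 21 DAS (−2.61 ± 0.17, adjusted p = 6.01e-13). GUN5, a subunit of magnesium chelatase, had 284, 312 and 276 FPKM at 35 DAS and 1249, 1078 and 1158 FPKM at 21 DAS (−1.99 ± 0.16, adjusted p = 5.71e-11).

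Genes of growth had the lowest list median. Of 35 genes for cell expansion and the wall, 30 fell, 25 of them at least 2-fold, with a median of −2.80. The xyloglucan endotransglucosylase gene XTH4 had 2.45, 2.59 and 2.5 FPKM at 35 DAS against 141, 109 and 137 FPKM at 21 DAS (−5.20 ± 0.44, adjusted p = 7.86e-11). EXPA8, an expansin that loosens walls, had 0.116, 0 and 0.752 FPKM at 35 DAS and 47.3, 58.5 and 52.8 FPKM at 21 DAS (−5.42 ± 0.47, adjusted p = 1.48e-10). Related enzymes went the other way: XTH24 had 396, 478 and 331 FPKM at 35 DAS and 101, 137 and 55.1 FPKM at 21 DAS (2.1 ± 0.42, adjusted p = 7.07e-05), and XTH5 was the other wall gene that rose (1.33 ± 0.15, adjusted p = 1.37e-08). All 17 aquaporin genes tested fell, 12 of them at least 2-fold. The tonoplast aquaporin TIP2;1 had 5.02, 3.82 and 9.80 FPKM at 35 DAS and 1001, 941 and 1231 FPKM at 21 DAS, a difference of −7.27 ± 0.28 (adjusted p = 2.26e-17). This gene overlaps AT3G16250 in the annotation, and the libraries do not separate strands, so reads of the 2 loci cannot be told apart. The plasma membrane aquaporin PIP2;3 had 12.6, 12.03 and 11.9 FPKM at 35 DAS against 169, 146 and 130 FPKM at 21 DAS (−3.50 ± 0.23, adjusted p = 1.03e-12).

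Division genes were already low at 21 DAS. Of 22 tested, 13 fell and 1 rose, and 20 fell after rescaling. The D-type cyclin CYCD3;1 had 0.276, 0.394 and 0.433 FPKM at 35 DAS and 2.75, 3.72 and 3.78 FPKM at 21 DAS (−1.68 ± 0.16, adjusted p = 8.88e-10). Xylem markers fell in 7 of 7 tested genes, from the 9 on that list. Their summed level was 2.31 to 2.94 FPKM at 35 DAS and 37.7 to 58.6 FPKM at 21 DAS. XCP2, a cysteine protease of xylem vessels, had 0.186, 0.788 and 1.18 FPKM at 35 DAS and 19.8, 13.7 and 23.2 FPKM at 21 DAS (−3.55 ± 0.38, adjusted p = 6.90e-09). Epidermis and trichome markers fell in 5 of 6, and their sum was 196 to 273 FPKM at 35 DAS against 1021 to 1154 FPKM at 21 DAS. ATML1, of the same list, was level, with means of 26.3 FPKM (SD 2.25) at 35 DAS and 26.5 FPKM (SD 1.80) at 21 DAS. CER1, which makes the alkanes of the leaf wax, had 0.112, 0.278 and 0.0540 FPKM at 35 DAS and 25.6, 21.0 and 17.9 FPKM at 21 DAS (−4.28 ± 0.30, adjusted p = 3.29e-12). Guard cell markers fell in 4 of 8 and rose in 1, with sums of 58.4 to 65.9 FPKM at 35 DAS and 56.4 to 68.7 FPKM at 21 DAS, which overlap. Phloem markers were higher in 6 of 9 and lower in 3, but none of them was higher after rescaling. In bulk leaf RNA, fewer cells of a type and less RNA per cell cannot be told apart.

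Several of the 12 largest falls at ZT1 belonged to genes with more than 100 FPKM at 21 DAS. AT2G10940, annotated as a lipid-transfer type protein, had 0.258, 0.0915 and 0.485 FPKM at 35 DAS against 2004, 1861 and 2265 FPKM at 21 DAS. Its difference of −10.65 ± 0.40 (adjusted p = 2.26e-17) was the lowest of all called genes that average 5 FPKM or more. TGG2, a myrosinase that hydrolyses glucosinolates, had 5.49, 2.08 and 5.38 FPKM at 35 DAS and 448, 524 and 432 FPKM at 21 DAS (−6.54 ± 0.36, adjusted p = 4.17e-14). The related myrosinase TGG1 had 40.9, 42.2 and 41.7 FPKM at 35 DAS and 1235, 1306 and 1297 FPKM at 21 DAS (−4.91 ± 0.20, adjusted p = 1.26e-16). These 2 myrosinases led a glucosinolate list in which 6 of 25 genes fell and 4 rose as deposited, and 15 were lower and 3 higher after rescaling. The arabinogalactan protein genes AGP21 and AGP17 differed by −6.85 and −5.43. The gibberellin-regulated GASA6 differed by −5.51 and the thionin gene AT1G66100 by −5.48. AT3G16670, of the pollen Ole e 1 allergen and extensin family, was listed at 0 in all 3 libraries at 35 DAS and had 54.9, 75 and 132 FPKM at 21 DAS. The remaining 2 of the 12, AT1G60590 and 4CL3, are described with the genes of the dawn.

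Among the 12 largest rises were a linker histone, a phosphotransfer protein and a calcium transporter, each near 0 at 21 DAS. HIS1-3, a drought-inducible linker histone, had 136, 223 and 170 FPKM at 35 DAS and 1.98, 2.35 and 3.44 FPKM at 21 DAS (5.62 ± 0.30, adjusted p = 2.61e-14). AHP4, a member of the phosphotransfer family of cytokinin signalling, had 42.1, 71.8 and 56.2 FPKM at 35 DAS and 0.226, 0 and 0 FPKM at 21 DAS (5.72 ± 0.24, adjusted p = 1.23e-16). CAX3, a vacuolar cation exchanger, had 104, 58.9 and 108 FPKM at 35 DAS and 1.99, 0.979 and 0.706 FPKM at 21 DAS (5.35 ± 0.52, adjusted p = 1.01e-09). In these 3 genes the lowest 35 DAS library exceeded the highest 21 DAS library many-fold, where no overlap was itself a condition for the 12. The metallothionein MT1A had 105, 3821 and 1810 FPKM at 35 DAS and 0.000567, 0.000112 and 0.000407 FPKM at 21 DAS, so its difference of 9.82 ± 1.80 (adjusted p = 2.54e-05) depends on the added 1, and it overlaps AT1G07590. DIP2 (AT5G03210), a gene of unknown function, had 237, 307 and 114 FPKM at 35 DAS and 4.88, 2.02 and 0.946 FPKM at 21 DAS (5.97 ± 0.56, adjusted p = 6.47e-10). AT4G01390, of the TRAF-like family, differed by 5.65. AT5G39520, AT3G14280 and AT5G66053 differed by 5.57, 5.40 and 6.20, and each overlaps another locus. AT5G66053 had 200 FPKM in 1 of the 3 libraries at 21 DAS and 0 in the others. The last 3 of the 12, PR1, PAP1 and PAP2, are described with their pathways.

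**Figure D2:**
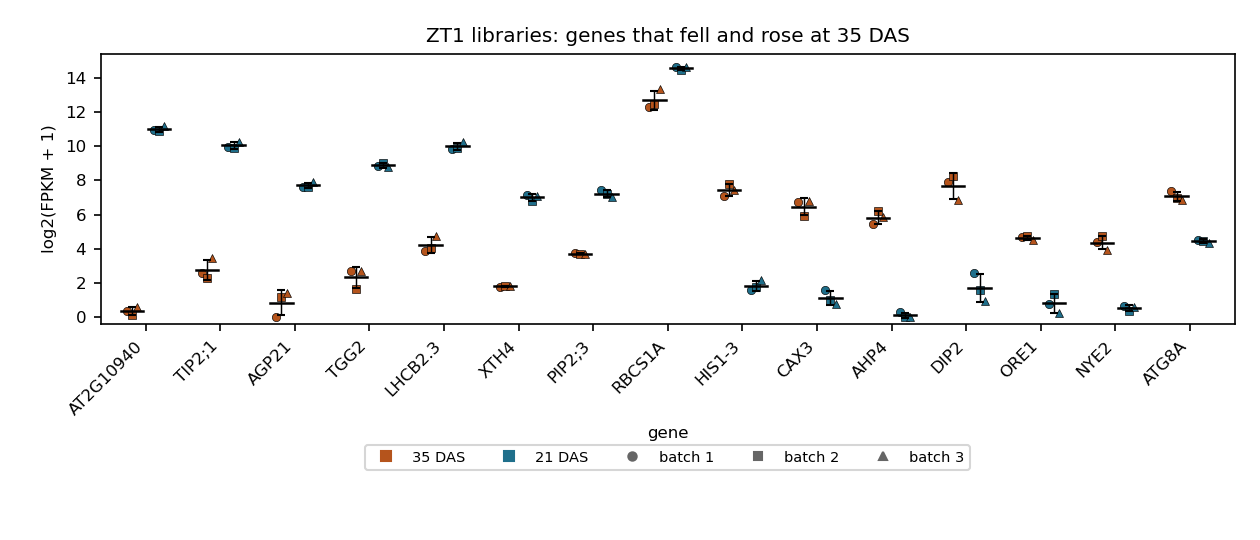
Levels of 15 genes in the 6 libraries of ZT1. The vertical axis is log2(FPKM + 1), marker shapes are batch numbers, and lines with bars are means ± SD of the 3 libraries of 35 DAS (left of each pair) and 21 DAS (right). The 8 genes from AT2G10940 to RBCS1A fell and the 7 from HIS1-3 to ATG8A rose, and in none of them do the ages overlap.

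Senescence genes were higher at 35 DAS, at ZT1 and on average at the other times. Of 26 regulators and markers, 24 rose at ZT1, each at least 2-fold, with a median of 2.03. After rescaling 24 were higher and 1 lower. The list median of the mean age effect at the other 5 times was 2.12. Against those times 0 genes of the list had a higher age effect at ZT1 and 2 a lower one. ORE1, a NAC factor that promotes leaf senescence, had 24.4, 25.4 and 22.0 FPKM at 35 DAS and 0.710, 1.58 and 0.194 FPKM at 21 DAS (3.84 ± 0.41, adjusted p = 4.59e-09). WRKY45 had 18.9, 32.8 and 30.0 FPKM at 35 DAS and 0.954, 1.44 and 0.795 FPKM at 21 DAS (3.75 ± 0.31, adjusted p = 5.59e-11). SAG13 had 155, 31.9 and 31.7 FPKM at 35 DAS and 2.37, 0.556 and 0.403 FPKM at 21 DAS (4.83 ± 0.77, adjusted p = 3.94e-06). ORE1 was even among the 35 DAS libraries, WRKY45 was lowest in that of batch 1, and SAG13 was highest in the library of batch 1. Without that library 20 of the 26 rose, with a median of 1.59. WRKY22 and SAG14 were not called, with differences of 0.01 (adjusted p = 0.984) and 0.82 (adjusted p = 0.489).

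Recycling genes rose too. Of 23 autophagy genes, 21 rose, 16 of them at least 2-fold, with a median of 1.12, and 17 rose after rescaling. ATG8A, a ubiquitin-like protein that coats autophagosomes, had 163, 123 and 116 FPKM at 35 DAS and 22.0, 21.1 and 18.8 FPKM at 21 DAS (2.63 ± 0.23, adjusted p = 1.38e-10), and it overlaps AT4G21990. ATG8G had 37.4, 35.1 and 32.0 FPKM at 35 DAS and 5.57, 5.71 and 7.90 FPKM at 21 DAS (2.29 ± 0.18, adjusted p = 2.59e-11). Chlorophyll breakdown rose in 9 of 11 genes as deposited and in 5 after rescaling, with 1 lower under both. NYE2, which directs chlorophyll out of its complexes, had 19.7, 25.6 and 14.5 FPKM at 35 DAS and 0.593, 0.281 and 0.530 FPKM at 21 DAS (3.81 ± 0.36, adjusted p = 6.81e-10). PPH, the pheophytinase, had 116, 145 and 104 FPKM at 35 DAS and 20.7, 20.8 and 16.3 FPKM at 21 DAS (2.60 ± 0.27, adjusted p = 3.83e-09). Nitrogen genes split: 7 of 20 rose and 8 fell. The cytosolic glutamine synthetase GLN1;3 had 33.9, 42.3 and 40.2 FPKM at 35 DAS and 4.18, 5.77 and 5.28 FPKM at 21 DAS (2.71 ± 0.22, adjusted p = 4.17e-11). The asparagine synthetase ASN2 had 12.8, 15.3 and 32.7 FPKM at 35 DAS and 148, 85.3 and 135 FPKM at 21 DAS (−2.62 ± 0.38, adjusted p = 8.34e-07).

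Defence genes of the salicylic acid pathway were higher at 35 DAS. Of 24 genes, 20 rose, each at least 2-fold, with a median of 2.07. PR1, an apoplastic defence protein, had 691, 22.3 and 37.7 FPKM at 35 DAS and 1.78, 0.152 and 0.140 FPKM at 21 DAS (5.79 ± 1.62, adjusted p = 0.00243). PR2, a glucanase, had 1132, 129 and 539 FPKM at 35 DAS and 23.8, 13.4 and 11.3 FPKM at 21 DAS (4.72 ± 0.99, adjusted p = 0.000133). PAD4, a lipase-like regulator, had 103, 30.3 and 34.6 FPKM at 35 DAS and 9.93, 8.47 and 7.55 FPKM at 21 DAS (2.35 ± 0.41, adjusted p = 1.21e-05). In all 3 the library of batch 1 was the highest of the 35 DAS libraries, and every 35 DAS library exceeded every 21 DAS library. The ages did not overlap in 71.6% of all genes tested. No overlap was also a condition for naming PR1, and PAD4 was chosen after its values were seen. ICS1, the isochorismate synthase of salicylic acid synthesis, was not called (adjusted p = 0.0541), with 206, 14.6 and 16.6 FPKM at 35 DAS and 10.5, 6.83 and 8.99 FPKM at 21 DAS. With the 6 ZT1 libraries alone 13 of the 24 genes rose, beside 8950 of all 18729 genes tested. Without the 35 DAS library of batch 1, 10 of the 24 rose, beside 9086 of all 18729. By count the list thus did not stand above all genes without that library. Its median was then 1.11, against 0.40 for all genes. The 35 DAS library of batch 1 was also high in BIP2, a chaperone of the endoplasmic reticulum. BIP2 had 310, 36.7 and 52.9 FPKM at 35 DAS and 30.9, 21.1 and 23.7 FPKM at 21 DAS. The difference of BIP2 (1.73 ± 0.66, adjusted p = 0.0209) was not called without that library, without the 21 DAS library of batch 2, or after rescaling. Whether a feature of that sample other than age contributed was not tested.

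Among anthocyanin genes the regulators PAP1 and PAP2 rose, while DFR and TT19 depended on another library. The MYB factors PAP1 and PAP2, which switch on the pathway, had 90.2, 257 and 139 FPKM and 48.7, 97.3 and 32.5 FPKM at 35 DAS. PAP1 had 1.95, 2.78 and 0.980 FPKM at 21 DAS, a difference of 5.73 ± 0.58 (adjusted p = 1.92e-09), and PAP2 was listed at 0 in all 3 libraries at 21 DAS. Both therefore stood high in every 35 DAS library, where no overlap was itself a condition for naming them. DFR, the dihydroflavonol reductase, had 1.17, 6.15 and 43.5 FPKM at 35 DAS and 0.0812, 0.413 and 0 FPKM at 21 DAS, and was not called (adjusted p = 0.0729). TT19, a glutathione transferase that carries anthocyanin, had 8.39, 25.4 and 113 FPKM at 35 DAS and 0.885, 4.73 and 2.21 FPKM at 21 DAS (3.22 ± 1.33, adjusted p = 0.0332). The library of batch 3 was the highest of the 35 DAS libraries in both enzymes. The call of TT19 was lost after rescaling and without that library, and also without any of 3 others of the 6. The whole flavonoid and anthocyanin list had 5 of 18 genes higher and 4 lower, where 53.2% and 17.3% of all genes tested were. After rescaling 3 were higher and 4 lower, where 29.5% and 30.7% of all genes tested were. Without the 35 DAS library of batch 1 the list had 7 and 2, and with the 6 ZT1 libraries alone 9 and 6. The 4 genes that were lower as deposited were CHS, CHI, FLS1 and MYB111, of flavonol synthesis and the early pathway.

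**Figure D3:**
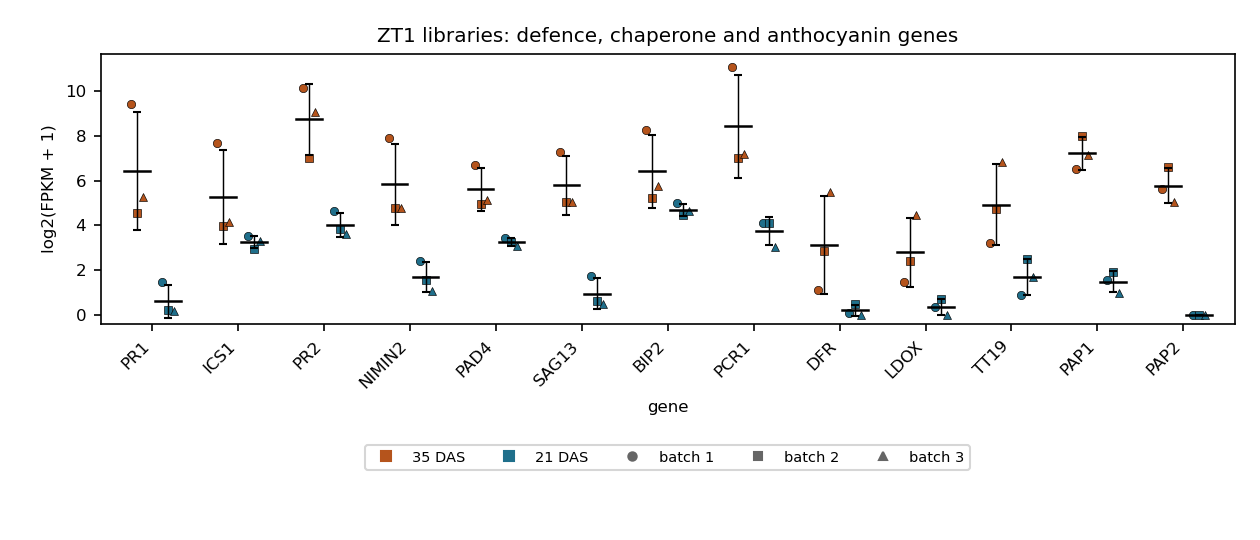
Levels of 13 defence, chaperone and anthocyanin genes in the 6 libraries of ZT1. The vertical axis is log2(FPKM + 1), marker shapes are batch numbers, and lines with bars are means ± SD of the 3 libraries of 35 DAS (left of each pair) and 21 DAS (right). The batch 1 library of 35 DAS is the highest from PR1 to PCR1, and the batch 3 library is the highest in DFR, LDOX and TT19.

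Genes of abscisic acid and cold were mostly higher at 35 DAS. In the abscisic acid and dehydration list 21 of 27 rose and 3 fell. PP2CA, a phosphatase of the abscisic acid pathway, had 156, 227 and 132 FPKM at 35 DAS and 35.9, 50.6 and 33.5 FPKM at 21 DAS (2.06 ± 0.25, adjusted p = 5.74e-08). RD29A, a dehydration-responsive gene, had 51.0, 74.9 and 46.1 FPKM at 35 DAS and 8.73, 5.15 and 4.42 FPKM at 21 DAS (3.05 ± 0.42, adjusted p = 3.65e-07). In the jasmonate list 18 of 32 rose as deposited, and 9 were higher and 2 lower after rescaling. Under both scalings that share of higher genes is near the 53.2% and 29.5% of all genes tested. AOC1, an allene oxide cyclase of jasmonate synthesis, had 92.8, 178 and 147 FPKM at 35 DAS and 18.8, 21.6 and 16.9 FPKM at 21 DAS (2.76 ± 0.27, adjusted p = 1.10e-09). Ethylene genes were higher in 11 of 16 and lower in 3, and 7 were higher after rescaling. Cytokinin genes were lower in 10 of 21 and higher in 6, among them IPT3, a cytokinin synthesis gene, with 9.81, 6.53 and 12.4 FPKM at 35 DAS and 62.2, 43.4 and 58.1 FPKM at 21 DAS (−2.42 ± 0.32, adjusted p = 2.18e-07). In the cold list 11 of 13 rose and 1 fell, all 11 at least 2-fold.

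About as many morning clock genes were higher at 35 DAS as were not called. Of 16 morning genes, 8 were higher at 35 DAS and none was lower, against 5 higher and 1 lower after rescaling. The shares of higher genes are near the 53.2% and 29.5% of all genes tested. Of all genes tested 17.3% were lower, and 30.7% after rescaling. CCA1 had 401, 485 and 370 FPKM at 35 DAS and 303, 275 and 281 FPKM at 21 DAS, and LHY had 600.1, 707 and 476 FPKM at 35 DAS and 511, 539.7 and 525 FPKM at 21 DAS. Neither was called (adjusted p = 0.168 and 0.750), and LHY overlapped between the ages. PRR9 and PRR7, repressors that follow CCA1 and LHY in the morning, were both higher. PRR9 had 96.9, 117 and 63.9 FPKM at 35 DAS and 29.7, 23.5 and 23.3 FPKM at 21 DAS (1.79 ± 0.43, adjusted p = 0.000592). PRR7 had 31.8, 33.1 and 29.5 FPKM at 35 DAS and 8.57, 9.32 and 7.63 FPKM at 21 DAS (1.77 ± 0.22, adjusted p = 5.46e-08). Both kept their calls after rescaling, with differences of 1.26 and 1.28.

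Genes of the day and evening clock were low at ZT1 at both ages. As deposited, 9 of 13 were higher at 35 DAS and 1 was lower, and after rescaling 6 and 2. Of all genes tested 53.2% were higher and 17.3% lower as deposited, and 29.5% and 30.7% after rescaling. ELF4, of the evening complex, had 8.10, 4.46 and 6.90 FPKM at 35 DAS and 0.912, 0.936 and 0.423 FPKM at 21 DAS (2.07 ± 0.27, adjusted p = 1.30e-07). TOC1 had 6.10, 4.50 and 2.88 FPKM at 35 DAS and 1.54, 1.82 and 2.15 FPKM at 21 DAS (0.91 ± 0.17, adjusted p = 3.31e-05). GI, which links the clock to flowering, had 23.4, 29.1 and 16.7 FPKM at 35 DAS and 9.02, 10.9 and 9.22 FPKM at 21 DAS (1.14 ± 0.21, adjusted p = 2.90e-05). The gene that was lower as deposited was CHE, a TCP factor at the CCA1 promoter. CHE had 5.74, 6.38 and 6.34 FPKM at 35 DAS and 16.1, 27.5 and 15.2 FPKM at 21 DAS (−1.48 ± 0.26, adjusted p = 1.52e-05). Of 17 clock outputs and PIF factors, 11 were higher and 2 lower, and after rescaling 8 and 3. TSF, a close relative of the flowering gene FT, had 10.4, 7.34 and 5.97 FPKM at 35 DAS and 0, 0.291 and 0 FPKM at 21 DAS (3.00 ± 0.36, adjusted p = 4.33e-08). Of 23 light signalling and photoprotection genes, 8 were higher and 7 lower, and after rescaling 4 and 9. The blue light receptor CRY2 had 78.9, 95.3 and 78.3 FPKM at 35 DAS and 29.1, 32.7 and 25.6 FPKM at 21 DAS (1.5 ± 0.12, adjusted p = 1.86e-11). RUP2, a repressor of the UV-B receptor UVR8, had 19.9, 21.6 and 24.5 FPKM at 35 DAS and 43.9, 41.7 and 43.4 FPKM at 21 DAS (−0.94 ± 0.15, adjusted p = 5.18e-06). These 2 light genes kept their signs after rescaling, at 0.97 and −1.47.

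To find where the age effect at ZT1 departs from other times, the mean age effect at the other 5 times was subtracted from it. This difference was called for 2681 genes (14.3%), 1895 of them (10.1%) higher and 786 (4.2%) lower. After rescaling 1173 (6.26%) were higher and 1556 (8.31%) lower, and 1921 genes were called with the same sign under both. Of the called genes, 382 did not differ at ZT1 itself by the test, and for 503 the age effect had opposite signs at ZT1 and on average at the other times. The count was 1634 without the 21 DAS library of batch 3 at ZT1.

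Among the 8 lowest of these differences were 4CL3, FLS1, CHIL and PAL1, which act in flavonoid and phenylpropanoid synthesis and had their highest mean at ZT1 at 21 DAS. In the whole flavonoid and anthocyanin list 3 of 18 genes, CHI, FLS1 and MYB111, were lower in this comparison and none was higher. F3H, the flavanone hydroxylase, had its highest mean at ZT1 at both ages, with 76.7, 112 and 101 FPKM at 35 DAS and 136, 131 and 148 FPKM at 21 DAS. It was called neither at ZT1 (−0.53 ± 0.91, adjusted p = 0.614) nor against the other times (−1.71 ± 0.99, adjusted p = 0.266), and it overlaps AT3G51238. 4CL3, a coumarate ligase of the flavonoid branch, had 0, 0.0563 and 0.372 FPKM at 35 DAS and 50.4, 55.8 and 64.5 FPKM at 21 DAS. At 21 DAS it averaged 56.9 ± 7.13 FPKM at ZT1 and from 0.720 ± 0.557 to 3.70 ± 1.24 FPKM at the other times (SD, n = 3). Its age effect was −5.67 ± 0.52 (adjusted p = 4.13e-10) at ZT1, −0.80 on average elsewhere, and −4.87 ± 0.57 as the difference (adjusted p = 1.53e-06). FLS1, the flavonol synthase, had 0.369, 0.197 and 0.599 FPKM at 35 DAS and 37.7, 44.2 and 50.7 FPKM at 21 DAS at ZT1, and from 1.3 ± 0.118 to 3.33 ± 1.7 FPKM at the other times at 21 DAS. The difference of FLS1 was −3.74 ± 0.31 (adjusted p = 2.92e-09). MYB111, a factor that turns on flavonol genes, followed with 0.0908, 0.0638 and 0.326 FPKM at 35 DAS and 10.3, 3.98 and 12.9 FPKM at 21 DAS and a difference of −2.01 ± 0.27 (adjusted p = 9.41e-06).

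Other genes around this pathway varied in their level at 35 DAS. CHIL, a helper protein of chalcone formation, had 0.420, 0.296 and 4.55 FPKM at 35 DAS and 68.2, 89.9 and 110 FPKM at 21 DAS (difference −4.82 ± 1.14, adjusted p = 0.00507). PAL1, the phenylalanine lyase at the entry, had 10.7, 10.1 and 6.94 FPKM at 35 DAS and 129, 127 and 166 FPKM at 21 DAS (−3.08 ± 0.74, adjusted p = 0.00538). The chalcone isomerase gene AT3G55120 had 14.8, 21.9 and 31.6 FPKM at 35 DAS and 56.9, 52.6 and 53.6 FPKM at 21 DAS (−1.72 ± 0.47, adjusted p = 0.0149). For these 3 genes the calls were lost when all libraries numbered 1 were left out together. The call of AT3G55120 was also lost without the 35 DAS library of batch 1 at ZT1 alone (adjusted p = 0.066). At ZT17 the 35 DAS libraries of CHIL spread widely, at 57.4 ± 95.8 FPKM. CHS, the chalcone synthase, had 6.56, 10.6 and 46.1 FPKM at 35 DAS and 227, 180 and 226 FPKM at 21 DAS, but its difference of −3.86 ± 1.53 was not called (adjusted p = 0.0890). The antisense locus AT1G06002 differed by −3.10 ± 0.30 (adjusted p = 2.97e-08). It overlaps UGT89C1 (AT1G06000), a flavonol rhamnosyltransferase gene, and reads of the 2 loci cannot be told apart without strand.

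Also among the 8 lowest were AT1G60590 and AT1G23205, which bear on pectin. AT1G60590, a pectin lyase-like gene, had 0.120, 0 and 0.169 FPKM at 35 DAS and 87.3, 64.4 and 95.8 FPKM at 21 DAS, where it averaged 0.578 ± 0.222 to 9.75 ± 1.86 FPKM at the other times. Its age effect was −6.23 ± 0.19 (adjusted p = 1.49e-19) at ZT1 and the difference was −4.38 ± 0.20 (adjusted p = 1.99e-14). AT1G23205, a pectin methylesterase inhibitor gene, had 0.518, 1.504 and 3.01 FPKM at 35 DAS and 70.6, 81.4 and 118 FPKM at 21 DAS (difference −3.46 ± 0.31, adjusted p = 1.03e-08). PME53, a pectin methylesterase outside the 8 lowest, had 0.440, 0.183 and 0.629 FPKM at 35 DAS and 40.6, 31.5 and 45.2 FPKM at 21 DAS (−2.90 ± 0.17, adjusted p = 5.75e-12). At 35 DAS the means of these 3 genes were at or under 2.06 FPKM at every time. Of the 17 aquaporins, 5 also differed more at ZT1 than elsewhere, with PIP2;3 at −1.68 ± 0.25 (adjusted p = 4.32e-05). A snoRNA gene, AT4G39364, was also among the 8 lowest at −5.20 ± 1.67 (adjusted p = 0.0361), but was listed at 0 in all 35 DAS libraries and in 1 of the 3 libraries at 21 DAS, against 315 and 497 FPKM in the others. Its call was lost in 5 of the 6 cases with 1 ZT1 library left out, over −8.08 to −3.60.

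In starch degradation the direction was mostly the opposite. Of 20 genes, 9 had a higher age effect at ZT1 than at the other times and 1 a lower one. PHS2, the cytosolic glucan phosphorylase, had 34.2, 60.01 and 48.3 FPKM at 35 DAS and 7.72, 9.12 and 8.52 FPKM at 21 DAS at ZT1. It averaged 368 ± 121 FPKM at 35 DAS and 367 ± 17.2 FPKM at 21 DAS at ZT9, so the ages were apart at the trough and close at the peak. Its difference was 2.40 ± 0.23 (adjusted p = 2.97e-08). DPE2, a glucanotransferase of maltose use, had 35.7, 54.9 and 50.8 FPKM at 35 DAS and 16.8, 19.0 and 16.6 FPKM at 21 DAS (difference 1.36 ± 0.21, adjusted p = 6.01e-05). ISA3, a debranching enzyme, had 8.59, 12.2 and 11.2 FPKM at 35 DAS and 2.53, 2.17 and 2.19 FPKM at 21 DAS (1.27 ± 0.24, adjusted p = 0.000778). AMY3, an alpha-amylase, differed between ZT1 and elsewhere by 1.26 ± 0.17 (adjusted p = 1.43e-05), and SEX4, a glucan phosphatase, by 0.95 ± 0.21 (adjusted p = 0.00224). BAM9, a beta-amylase relative without known catalytic activity, went the other way with 150, 161 and 134 FPKM at 35 DAS and 623, 613 and 611 FPKM at 21 DAS (difference −1.37 ± 0.22, adjusted p = 0.000106).

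In starch synthesis the large subunit gene APL3 had 125, 139 and 127 FPKM at 35 DAS and 18.5, 26.0 and 15.6 FPKM at 21 DAS, and differed by 1.69 ± 0.24 between ZT1 and the other times (adjusted p = 2.04e-05). GBSS1, which makes amylose, peaked at ZT1 at both ages, with 829, 1062 and 908 FPKM at 35 DAS and 955, 1053 and 1013 FPKM at 21 DAS. Its ages overlapped there, while at ZT9 it averaged 31.4 ± 20.8 FPKM at 35 DAS and 2.66 ± 0.523 FPKM at 21 DAS, which gave a difference of −2.02 ± 0.41 (adjusted p = 0.00112). SWEET2, a vacuolar sugar transporter gene, fell at ZT1, with 26.4, 30.8 and 30.9 FPKM at 35 DAS and 226, 189 and 238 FPKM at 21 DAS (−2.85 ± 0.23, adjusted p = 5.72e-11).

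Some heat shock genes had a higher age effect at ZT1 than at the mean of the other times. Of 11 genes for heat shock and protein folding, 9 rose at ZT1 and 5 had a higher age effect there than at the other times, but against ZT21 alone only 1 did, HSP70. HSP70 (AT3G12580) had 91.3, 63.4 and 31.8 FPKM at 35 DAS and 4.07, 4.26 and 2.13 FPKM at 21 DAS, a difference between times of 2.17 ± 0.46 (adjusted p = 0.00176). HSP90.1 had 100.2, 37.0 and 22.8 FPKM at 35 DAS and 7.16, 5.33 and 2.31 FPKM at 21 DAS (2.03 ± 0.48, adjusted p = 0.00523). HSFA2, a heat shock factor, had 14.8, 6.11 and 2.19 FPKM at 35 DAS and 0.922, 1.32 and 0.764 FPKM at 21 DAS (1.81 ± 0.54, adjusted p = 0.0242). The library of batch 1 was the highest of the 35 DAS libraries in each. Without it 6 of the 11 rose at ZT1 with a median of 0.80, against 1.73 with it. The between-time call of HSFA2 was then lost (1.23, adjusted p = 0.148) while HSP70 and HSP90.1 kept theirs. With 1 ZT1 library left out in turn, HSFA2 lost its call in 4 of the 6 cases, over 1.23 to 2.38.

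The cold genes COR15A, COR15B and COR413IM1 and the jasmonate genes AOC2 and CORI3 had a higher age effect at ZT1, where each had its lowest mean of the 6 times at 21 DAS. At 35 DAS ZT1 was the lowest time of AOC2 but not of the other 4. In the whole cold list 4 of 13 genes had a higher age effect at ZT1 and 2 a lower one. In the jasmonate list 4 of 32 were higher and 2 lower, near the 10.1% and 4.2% of all genes tested. COR15A, a chloroplast protein of freezing tolerance, had 257, 385 and 497 FPKM at 35 DAS and 44.4, 46.5 and 63.3 FPKM at 21 DAS at ZT1 (difference 2.32 ± 0.38, adjusted p = 0.000123). At ZT13 it averaged 2820 ± 1787 FPKM at 35 DAS and 2284 ± 426 FPKM at 21 DAS. COR413IM1, a protein of the chloroplast inner membrane, had 227, 428 and 342 FPKM at 35 DAS and 11.1, 19.5 and 12.2 FPKM at 21 DAS (2.99 ± 0.31, adjusted p = 1.65e-07). COR15B differed by 2.03 ± 0.32 (adjusted p = 7.29e-05). CBF1, a cold factor that acts upstream of the COR genes, was at or under 0.561 FPKM in all 6 libraries and differed by −1.39 ± 0.24 (adjusted p = 0.000298). Its relatives CBF2 and CBF3 had higher means at 35 DAS at ZT1. CBF2 averaged 3.56 FPKM at 35 DAS and 0.401 FPKM at 21 DAS, and CBF3 2.35 and 0.0665 FPKM. The CBF1 means at ZT9 were 16.4 FPKM at 35 DAS and 4.17 FPKM at 21 DAS. AOC2, a second allene oxide cyclase, had 58.9, 97.0 and 96.0 FPKM at 35 DAS and 17.0, 20.8 and 16.2 FPKM at 21 DAS, against 455 ± 193 FPKM at 35 DAS and 651 ± 187 FPKM at 21 DAS at ZT17. Its difference was 2.05 ± 0.31 (adjusted p = 5.13e-05), and that of CORI3, a jasmonate-induced aminotransferase, was 2.05 ± 0.35 (adjusted p = 0.000199). AT5G23240, a DNAJ-domain gene that overlaps AT5G23235, had 20.5, 15.5 and 17.1 FPKM at 35 DAS and 0.825, 0.883 and 0.993 FPKM at 21 DAS (2.48 ± 0.19, adjusted p = 4.47e-10). The remaining genes among the 8 highest were DIP2 (2.42 ± 0.62, adjusted p = 0.00882), PCR1, AT3G22235, CPuORF10, AT1G69140 and BT2. PCR1, a cadmium resistance gene, rested on batch 1, with 2188, 127 and 144 FPKM at 35 DAS and 16.1, 16.5 and 7.19 FPKM at 21 DAS, and its call (3.29 ± 1.08, adjusted p = 0.0402) was lost without that library (1.96) and without any 1 of the 21 DAS libraries. The call of DIP2 was lost without batch 3 of 21 DAS (adjusted p = 0.0547). AT3G22235, which resembles a pathogen and circadian controlled gene, had 2283, 890.1 and 529.7 FPKM at 35 DAS and 116, 200 and 87.2 FPKM at 21 DAS (2.51 ± 0.55, adjusted p = 0.00262). CPuORF10 overlaps AT5G15950 and differed by 2.51 ± 0.62 (adjusted p = 0.00684), and the pseudogene AT1G69140 (3.02 ± 0.42, adjusted p = 1.78e-05) was under 1 FPKM at ZT1 in every library.

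**Figure D4:**
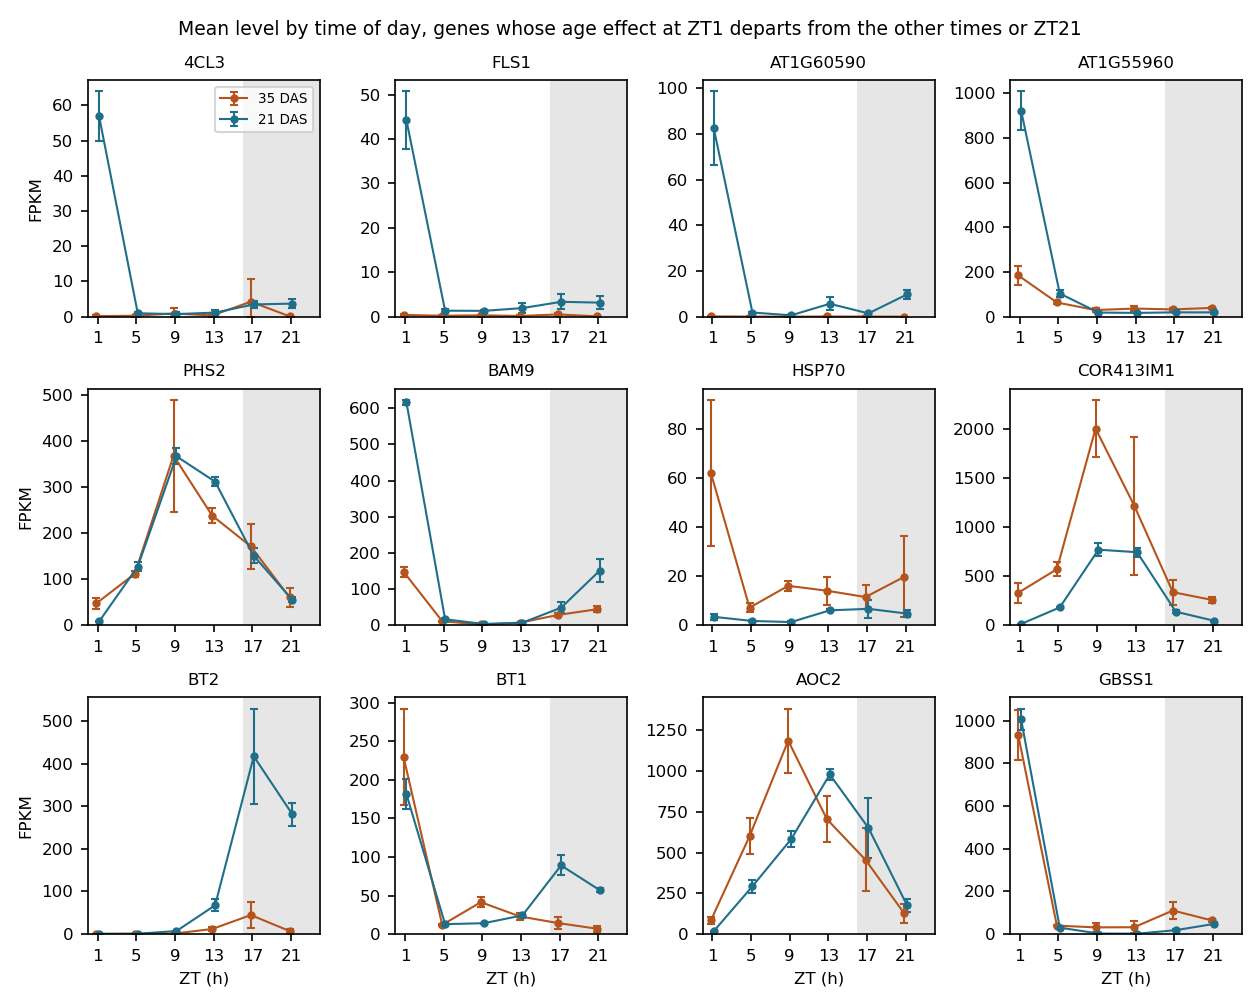
Mean FPKM over the day of 12 genes whose age effect at ZT1 departs from the other times or ZT21. Lines join the means of 3 libraries at 35 DAS and 21 DAS, bars are SD and stop at 0, and the grey field is the dark. 4CL3, FLS1 and AT1G60590 peak at ZT1 at 21 DAS with means of 56.9, 44.2 and 82.5 FPKM and stay under 0.5 FPKM at that time at 35 DAS.

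Clock genes also entered this comparison, in which 10.1% of all genes tested were higher and 4.2% lower. Of 16 morning genes 2 were higher and 2 lower, and of 13 day and evening genes 3 were higher and 0 lower. Of 17 outputs and PIF factors 2 were higher and 2 lower, and of 23 light genes 3 were higher and 5 lower. RVE7, a MYB-like relative of CCA1, had 10.1, 10.3 and 8.57 FPKM at 35 DAS and 2.16, 2.89 and 2.21 FPKM at 21 DAS at ZT1, while at ZT5 it averaged 26.1 ± 4.69 FPKM at 35 DAS and 32.4 ± 1.37 FPKM at 21 DAS. Its difference was 1.48 ± 0.27 (adjusted p = 0.000540). RVE2, another relative, had 28.0, 27.4 and 21.7 FPKM at 35 DAS and 17.7, 12.6 and 23.58 FPKM at 21 DAS, which overlap. At ZT21 RVE2 averaged 278 ± 101 FPKM at 35 DAS and 702 ± 44.0 FPKM at 21 DAS, and its difference was 1.3 ± 0.29 (adjusted p = 0.00276), a call lost without the libraries numbered 1 or those numbered 2. ELF4, PRR5 and PRR3 had differences of 1.79 ± 0.29 (adjusted p = 0.000120), 0.83 ± 0.18 (adjusted p = 0.00248) and 0.71 ± 0.22 (adjusted p = 0.0296), each higher at ZT1. GRP7, an RNA-binding output of the clock that peaks at ZT9, had 86.3, 90.0 and 91.2 FPKM at 35 DAS and 20.5, 31.0 and 28.4 FPKM at 21 DAS at ZT1 (0.73 ± 0.18, adjusted p = 0.00590). TSF and CRY2 also had the larger age effect at ZT1, by 1.21 ± 0.40 (adjusted p = 0.0395) and 0.87 ± 0.13 (adjusted p = 2.96e-05). With 1 ZT1 library left out, PRR3 ranged over 0.62 to 0.80 and TSF over 1.02 to 1.37, and each lost its call without batch 1 or 2 of 35 DAS and in 4 of the 6 cases.

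Other clock and light genes had a lower age effect at ZT1 than at the other times. LNK2, a coactivator that acts with RVE proteins, had 264, 355 and 297 FPKM at 35 DAS and 273, 308 and 290 FPKM at 21 DAS at its peak. At ZT17 it averaged 17.1 ± 2.72 FPKM at 35 DAS and 3.05 ± 0.217 FPKM at 21 DAS, and its difference was −1.12 ± 0.32 (adjusted p = 0.0195). LNK2 overlaps AT3G54490. CDF2, a DOF factor that holds back flowering, differed by −1.20 ± 0.21 (adjusted p = 0.000277). RVE6 differed by −0.57 ± 0.17 (adjusted p = 0.0216), PIF5, a growth-promoting factor, by −0.76 ± 0.22 (adjusted p = 0.0214), and STO, a B-box protein, by −0.83 ± 0.23 (adjusted p = 0.0159). RUP2 (difference −1.32 ± 0.17, adjusted p = 5.52e-06) was lower at 35 DAS at ZT1, while its mean age effect at the other times was 0.38. It averaged 3.91, 2.97 and 2.81 FPKM at 35 DAS against 5.98, 1.22 and 0.974 FPKM at 21 DAS at ZT5, ZT9 and ZT13. The calls of LNK2, PIF5, RVE6 and STO were each lost without batch 1 of 35 DAS at ZT1. With 1 ZT1 library left out in turn, they were lost in 3, 2, 4 and 1 of the 6 cases. Their values then ranged over −1.24 to −1.02, −0.86 to −0.60, −0.69 to −0.48 and −0.91 to −0.76. CCA1 did not pass (−1.08 ± 0.38, adjusted p = 0.0559), with 11.7 ± 0.929 FPKM at 35 DAS and 0.952 ± 0.0756 FPKM at 21 DAS at ZT17. FER4, a chloroplast ferritin, had 35.6, 29.4 and 27.0 FPKM at 35 DAS and 107, 93.1 and 106 FPKM at 21 DAS at ZT1 and differed by −1.88 ± 0.24 (adjusted p = 6.75e-06).

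**Figure D5:**
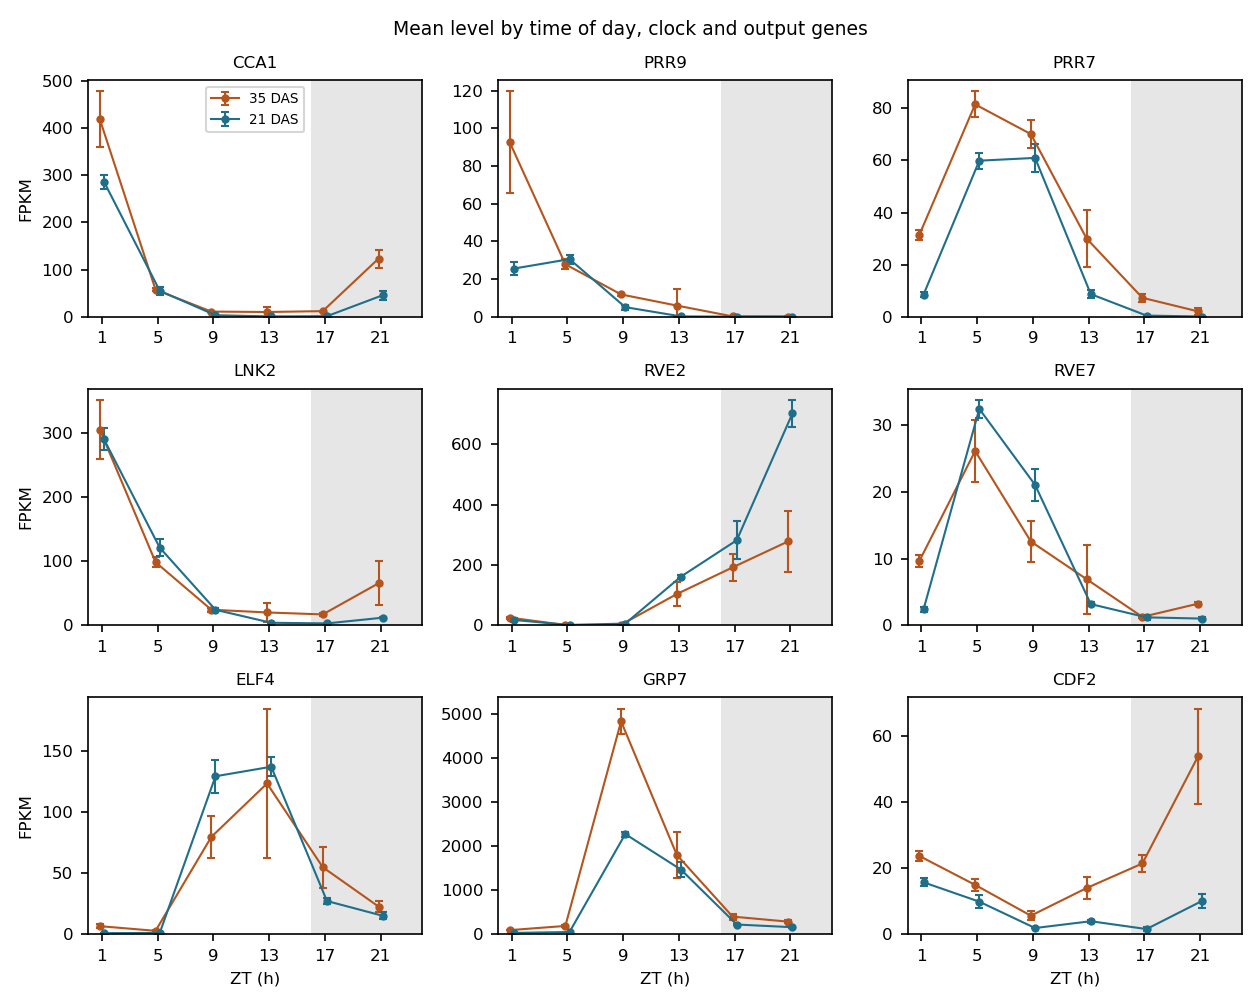
Mean FPKM over the day of 9 clock and output genes. Lines join the means of 3 libraries at 35 DAS and 21 DAS, bars are SD and stop at 0, and the grey field is the dark. CCA1 averages 419 FPKM at 35 DAS and 286 FPKM at 21 DAS at ZT1, and RVE2 averages 278 FPKM at 35 DAS and 702 FPKM at 21 DAS at ZT21.

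The age effect at ZT1 was set against that at ZT21, 4 h earlier in the daily cycle and in the dark. The 2 differed for 1524 genes (8.14%), 963 (5.14%) higher at ZT1 and 561 (3%) lower. After rescaling 829 (4.43%) were higher and 842 (4.5%) lower. Of the 1524 genes, 1029 were also called in the comparison with the other 5 times, which contains ZT21. Without the 35 DAS library of batch 1 at ZT21 the count of called genes was 989. BT2, a scaffold protein that responds to sugar and nitrogen, was at or under 1.02 FPKM in all 6 libraries of ZT1, with 0.545, 0.327 and 0.513 FPKM at 35 DAS and 1.02, 0.289 and 0.311 FPKM at 21 DAS. At ZT21 it averaged 7.19 ± 5.46 FPKM at 35 DAS and 281 ± 26.2 FPKM at 21 DAS, and the age effects differed by 5.31 ± 0.63 (adjusted p = 4.82e-06), and against the other 5 times by 2.69 ± 0.49 (adjusted p = 0.000402). Its relative BT1 had 171, 296 and 223 FPKM at 35 DAS and 197, 160 and 188 FPKM at 21 DAS at ZT1, against 7.0 ± 3.76 FPKM at 35 DAS and 56.9 ± 2.26 FPKM at 21 DAS at ZT21 (3.30 ± 0.40, adjusted p = 7.97e-06). In both genes the ages overlapped at ZT1 and lay apart at ZT21. They were apart in the light as well. At ZT9 BT2 averaged 0.904 ± 0.298 FPKM at 35 DAS and 7.17 ± 1.11 FPKM at 21 DAS. BT1 was higher at 35 DAS at that time, with 41.4 ± 6.49 FPKM against 14.1 ± 0.521 FPKM at 21 DAS. AT1G55960, a polyketide cyclase-like gene, had 152, 169 and 233 FPKM at 35 DAS and 860, 1023 and 888 FPKM at 21 DAS at ZT1, against 39.1 ± 6.15 FPKM at 35 DAS and 19.0 ± 5.87 FPKM at 21 DAS at ZT21 (−3.37 ± 0.29, adjusted p = 3.06e-08). The other 4 of the 5 lowest were AT1G23205 at −3.75, 4CL3 at −3.60, AT1G06002 at −3.23 and AT1G60590 at −2.82. The remaining 3 of the 5 highest were AT5G66053 at 6.78 and AT4G29905 and AT2G16367 at 3.72 each. Of these, AT4G29905 had 139, 175 and 172 FPKM at 35 DAS and 182, 186 and 203 FPKM at 21 DAS, and the calls of the other 2 were lost without single libraries: AT5G66053 without batch 2 or 3 of 21 DAS at ZT1, and AT2G16367 in 11 of 12 cases (2.59 to 5.27). For starch degradation, 9 of 20 genes were higher at ZT1 than at ZT21 and none was lower.

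Promoters of 6 genes whose age effect at ZT1 differed from that at the other times are shown for the 250 bases before the RefSeq gene start (TAIR10.1, strand of the gene, 5′ to 3′). They are RVE7 (chr1:6308244-6308493, minus strand), RVE2 (chr5:14753089-14753338, minus), GRP7 (chr2:9266558-9266807, minus), COR413IM1 (chr1:10289667-10289916, minus), CHIL (chr5:1563036-1563285, plus) and 4CL3 (chr1:24171636-24171885, minus). Capitals mark the motifs found: the evening element AAAATATCT, the CCA1 binding site AAAAATCT, the G-box CACGTG, the I-box core GATAAG and the morning element CCACAC, each searched on both strands.
RVE7: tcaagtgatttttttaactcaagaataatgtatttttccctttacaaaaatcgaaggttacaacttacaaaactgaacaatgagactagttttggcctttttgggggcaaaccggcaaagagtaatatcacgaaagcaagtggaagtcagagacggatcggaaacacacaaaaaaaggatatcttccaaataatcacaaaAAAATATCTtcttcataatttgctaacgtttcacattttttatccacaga
RVE2: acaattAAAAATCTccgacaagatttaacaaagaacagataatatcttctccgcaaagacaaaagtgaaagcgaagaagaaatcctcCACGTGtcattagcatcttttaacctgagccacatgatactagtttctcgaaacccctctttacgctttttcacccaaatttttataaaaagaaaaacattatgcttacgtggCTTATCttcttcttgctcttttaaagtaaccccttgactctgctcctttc
GRP7: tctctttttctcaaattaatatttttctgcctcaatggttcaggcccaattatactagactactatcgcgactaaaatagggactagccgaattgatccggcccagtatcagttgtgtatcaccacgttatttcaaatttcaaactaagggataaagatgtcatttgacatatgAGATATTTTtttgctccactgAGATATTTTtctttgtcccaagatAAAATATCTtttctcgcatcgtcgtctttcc
COR413IM1: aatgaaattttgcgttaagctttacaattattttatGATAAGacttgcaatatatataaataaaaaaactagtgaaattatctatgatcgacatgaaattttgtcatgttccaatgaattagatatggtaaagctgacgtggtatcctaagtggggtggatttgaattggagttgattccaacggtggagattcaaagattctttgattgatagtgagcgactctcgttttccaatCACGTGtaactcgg
CHIL: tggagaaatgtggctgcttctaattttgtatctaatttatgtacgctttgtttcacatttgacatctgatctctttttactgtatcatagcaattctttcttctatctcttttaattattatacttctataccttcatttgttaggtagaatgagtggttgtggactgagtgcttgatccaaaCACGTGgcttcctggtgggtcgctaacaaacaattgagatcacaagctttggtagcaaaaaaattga
4CL3: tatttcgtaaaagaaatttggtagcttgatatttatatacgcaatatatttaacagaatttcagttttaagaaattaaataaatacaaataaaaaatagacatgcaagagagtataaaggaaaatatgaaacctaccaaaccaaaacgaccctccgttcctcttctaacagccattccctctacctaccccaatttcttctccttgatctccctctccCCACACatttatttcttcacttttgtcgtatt

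RVE7 held 1 evening element, which begins at position −50 from the start. GRP7 held 3, at −76, −55 and −31, the first 2 on the opposite strand. RVE2 held a CCA1 binding site at −244, a G-box at −163 and an I-box core on the opposite strand at −50. COR413IM1 held an I-box core at −214 and a G-box at −14. In CHIL a G-box began at −67, and in 4CL3 a morning element at −32. These matches are letters in a window and were not tested as binding sites.

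Across promoters of 250 bases before to 50 bases after the start, the evening element occurred in 5.76% of 1891 genes whose age effect was higher at ZT1 than at the other times, 2.93% of 784 genes whose age effect was lower, 583 of 18674 genes tested and 2.49% of all 37897 annotated promoters. The CCA1 binding site occurred in 10.3%, 8.93%, 8.2% and 7.13% of the same 4 sets, and the G-box in 10.2%, 11.1%, 8.85% and 6.46%. The I-box core occurred in 15.4%, 14.9%, 15% and 15.1%, and the morning element in 8.3%, 9.31%, 8.02% and 7.78%. The shares are descriptions with no test, and both called sets shift with the scaling, as given above.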

How the data were processed

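Poly(A) RNA of rosette leaves was sequenced with a TruSeq RNA kit, which does not mark strand, per the labels' protocols. The authors deposited FPKM per transcript for 36 libraries. STAR 2.3.0e, HTSeq, edgeR 3.12.1 and the build TAIR10 are named in the submitters' processing notes, while the step that made FPKM is not given in the sources used here. FPKM were summed per locus, from 41342 transcripts to 33279 loci. Genes with at least 1 FPKM in at least 3 libraries were kept, 18729 in all. The deposited FPKM were analysed as log2(FPKM + 1), which understates the change of low genes, with limma 3.58.1 (R 4.3.3) as 12 group means over 36 libraries with a mean-variance trend and Benjamini-Hochberg adjustment over all genes (threshold 0.05). The test was checked on simulated data with few changed genes and, for each gene, normal noise of the same size in every library. That check does not cover the uneven spread of the libraries used here. The 3 comparisons share libraries of ZT1.

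The members and the 31 gene lists (666 symbols, 652 matched) were chosen with earlier results of these data known. Genes are named as the 12 highest and 12 lowest called differences at ZT1 with a mean of at least 5 FPKM and no overlap, the 8 and 8 against the other 5 times, the 5 and 5 against ZT21, up to 6 members per list with the largest difference, members called against the other times, and any clock or light gene. DFR, F3H, ICS1, LDOX, PAD4, SAG14, WRKY22, XTH24 and XTH5 lie outside that rule and were chosen after their values were seen. The titles call the replicate numbers batches, so the numbers were taken to pair the samples. Same-numbered ZT1 libraries deviated together (r = 0.219, 0.109 and 0.184), but over all pairs of groups the mean r was 0.00856 (−0.473 to 0.582) for the same number and −0.00445 for different numbers. Alternatives covered the pseudocount, filters, rescaling, the replicate block, weights, the trend and leaving out libraries. Promoter sequences are from RefSeq (TAIR10.1), of which 32803 loci were compared with the files' loci and all overlapped the same ID.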

Additional observations from a re-analysis of the deposited data

Results flagged for a closer look

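The age effect differed between ZT1 and the mean of the other 5 times, by a test of the difference itself, for 2681 genes, and between ZT1 and ZT21 for 1524. The values below are those differences, as log2 of the age effect at ZT1 minus that at the other times, for the genes described above, and no explanation was weighed.

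In flavonol and phenylpropanoid synthesis the age effect at ZT1 was lower for 4CL3 (−4.87), CHIL (−4.82), FLS1 (−3.74), PAL1 (−3.08), the locus AT1G06002 (−3.10), MYB111 (−2.01) and CHI, which is AT3G55120 (−1.72). Among pectin and water transport genes it was lower for AT1G60590 (−4.38), AT1G23205 (−3.46), PME53 (−2.90) and PIP2;3 (−1.68). The snoRNA gene AT4G39364 had −5.20, and FER4 had −1.88.

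In starch and sugar metabolism the age effect at ZT1 was higher for PHS2 (2.40), APL3 (1.69), DPE2 (1.36), ISA3 (1.27), AMY3 (1.26) and SEX4 (0.95), and lower for GBSS1 (−2.02) and BAM9 (−1.37). Among cold and jasmonate genes COR413IM1 had 2.99, COR15A 2.32, COR15B 2.03, AOC2 2.05 and CORI3 2.05, while CBF1 had −1.39. The heat shock genes HSP70, HSP90.1 and HSFA2 had 2.17, 2.03 and 1.81. Other genes with high differences were PCR1 (3.29), AT1G69140 (3.02), BT2 (2.69), AT3G22235 (2.51), CPuORF10 (2.51), AT5G23240 (2.48) and DIP2 (2.42).

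Among clock and light genes the difference was above 0 for ELF4 (1.79), RVE7 (1.48), RVE2 (1.3), TSF (1.21), CRY2 (0.87), PRR5 (0.83), GRP7 (0.73) and PRR3 (0.71). It was below 0 for RUP2 (−1.32), CDF2 (−1.20), LNK2 (−1.12), STO (−0.83), PIF5 (−0.76) and RVE6 (−0.57).

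Against ZT21 alone the difference was above 0 for AT5G66053 (6.78), BT2 (5.31), AT4G29905 (3.72), AT2G16367 (3.72) and BT1 (3.30). It was below 0 for AT1G23205 (−3.75), 4CL3 (−3.60), AT1G55960 (−3.37), AT1G06002 (−3.23) and AT1G60590 (−2.82).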

How the results depend on the processing

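The replicate block gave 13212 genes called at ZT1, 2654 against the other 5 times and 1511 against ZT21, and changed no call of the 136 gene values given above, the pairing of batches included. With the 6 ZT1 libraries alone 11980 genes were called, and 11836 with the replicate block. Rescaling gave 5522 genes higher and 5745 lower at ZT1, 1173 higher and 1556 lower against the other 5 times, and 842 lower against ZT21. WRKY22, not called as deposited, was lower after rescaling (−0.44). Array weights gave 5051 genes against the other 5 times (3541 higher, 1510 lower) and 4119 against ZT21 (2480 higher, 1639 lower). The cause was not tested. Leaving out 1 library or 1 batch number gave 11276 to 13160 genes at ZT1, 1115 to 2858 against the other 5 times (768 to 2101 higher, 343 to 757 lower) and 245 to 2002 against ZT21 (141 to 1234 higher, 104 to 768 lower). Of 65 values called at ZT1, 62 were called in every alternative run, of 51 against the other times 29, and of 10 against ZT21 6.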
